A study of Mus musculus with 12 samples.

Results

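The mRNAs of the YAP and TEAD branch of the Hippo pathway were followed in polysome fractions of 4T1, a cancer cell line from the mouse mammary gland. They comprised 10 of the 55376 genes in the count file, chosen by symbol as Hippo pathway genes and YAP targets around Yap1, an mRNA that the study itself examined. The members were Yap1, Wwtr1, Tead1, Tead3, Lats1, Lats2, Amotl1, Amotl2, Ajuba and Ankrd1. All 10 passed the filter on low counts and were among the 12224 genes tested, and none of them was below 7.34 CPM (counts relative to the library total, after TMM scaling) in any library, so that no member entered through a single group. The cells carried a CMV promoter vector stably, either empty (mock) or with full-length Mettl7a1 cDNA, and had been selected with G418. Whether each line was 1 clone or a pool is not stated. Cells of both genotypes received cycloheximide at 0.1 mg/ml for 5 min, which holds ribosomes on the mRNA, before their lysates were run on sucrose gradients. Free subunits and monosomes, in fractions 3 to 7, were collected as the sub-polysomal pool, and the heavier fractions 8 to 11 as the polysomal pool. There were 3 libraries per pool and genotype, with letters A to C for mock and D to F for METTL7A1 cells.

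In the Hippo pathway, the kinases Stk3 and Stk4 with their scaffold Sav1 activate Lats1 and Lats2, which act with the cofactors Mob1a and Mob1b. The Lats kinases phosphorylate the coactivators YAP (Yap1) and TAZ (Wwtr1), which are then held in the cytoplasm or degraded. When they are not phosphorylated, YAP and TAZ enter the nucleus, bind the TEAD transcription factors and raise the transcription of targets that include Ankrd1, Lats2 and Amotl2. Lats2 and Amotl2 in turn restrain YAP, so that the pathway holds feedback loops, and its output in mammary epithelium is known for its response to cell shape, attachment and actin tension.

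Total counts lay between 1817520, in mock sub-polysomal library A, and 6966156. Mettl7a1 had 4 to 24 counts in mock libraries and 989 to 2436 in METTL7A1 libraries, as labelled. All 5 epithelial markers (Epcam, Krt8, Krt18, Cdh1 and Krt7) were above 0 in every group, while none of the 8 markers of fibroblasts, leukocytes or endothelial cells passed the filter. Mitochondrial transcripts made up 4.37% to 8.49% of sub-polysomal and 0.684% to 2.14% of polysomal counts. The study describes its gradients as run on biological replicates, but the labels do not say whether each library came from a separate culture, so the p-values measure the spread between these libraries, which may be technical. In bulk RNA, fewer cells with an mRNA and less of it per cell cannot be told apart.

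The members were first ordered by their level per length, in RPKM (counts per kilobase of gene length, scaled as CPM). Ankrd1, which encodes a nuclear ankyrin repeat protein and is a standard readout of YAP activity, lay highest in all 4 groups, at 167 ± 16.0 RPKM (SD, n = 3) in mock sub-polysomal and 179.8 ± 6.93 RPKM (SD, n = 3) in mock polysomal RNA. Ajuba, a LIM domain protein that binds and inhibits the Lats kinases, came next in all 4 groups, between 27.7 and 30.1 RPKM on average, and overlapped neither Ankrd1 above it nor the member below it in any group. The coactivators changed places with the pool. Wwtr1 was above Yap1 in both sub-polysomal groups (19.2 ± 1.59 against 12.6 ± 0.895 RPKM in mock cells), and Yap1 was above Wwtr1 in both polysomal groups (26.2 ± 2.81 against 20.7 ± 2.65 RPKM in mock cells, SD, n = 3 each). The lowest places were held by Tead1, Tead3 and Lats2, joined by Amotl1 in the sub-polysomal pool, and these neighbours mostly overlapped. In mock polysomal RNA, for instance, Tead3 (4.28 ± 0.374 RPKM), Tead1 (4.20 ± 0.478 RPKM) and Lats2 (3.87 ± 0.778 RPKM, SD, n = 3 each) did not differ beyond their spread. Lats2 shares 2955 bases, 45.7% of its exon bases, with the gene Gm49361 on the same strand, and how the counting treated reads in both genes is not stated, so its level per length is uncertain.

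**Figure D1:**
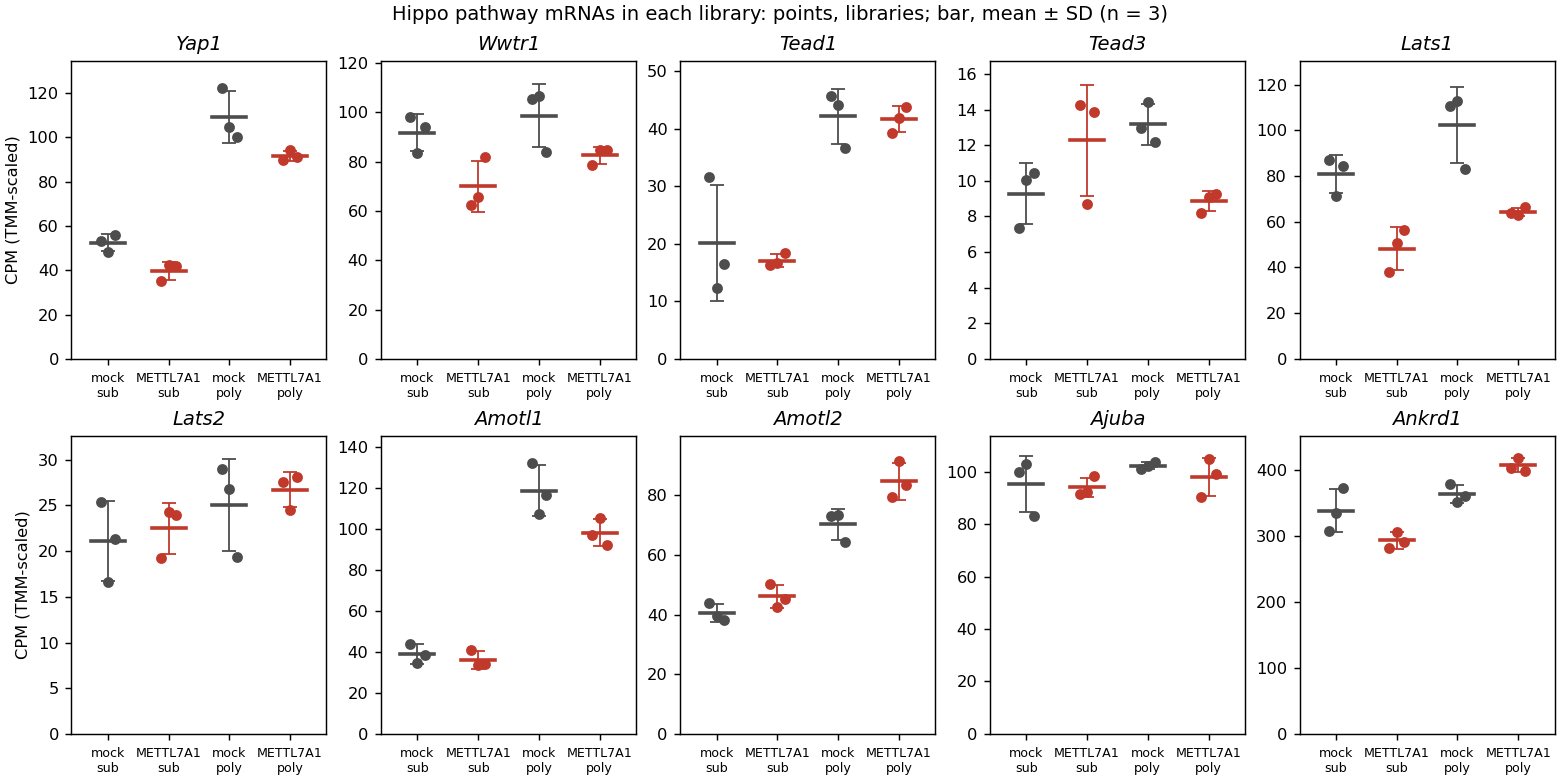
Level of each of the 10 Hippo pathway mRNAs in CPM (vertical axes from 0, scaled by TMM) in mock (grey) and METTL7A1 (red) cells, in the sub-polysomal and the polysomal pool. Points are libraries and bars the mean ± SD of 3. Yap1, Tead1, Amotl1 and Amotl2 stand higher in the polysomal pool in both genotypes, and Lats1 stands lower in METTL7A1 cells in both pools.

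To show the genes' upstream sequence beside their levels, the 250 bases before each RefSeq transcription start (GRCm38.p6, the build of the count file) were searched for the core TEAD motif CATTCC on both strands (reverse complement GGAATG). The table held 9 of the 10 members, with 13 starts. Tead1 is named only. The letters were found upstream of 6 of the 9 members (Yap1, Wwtr1, Tead3, Amotl2, Ajuba and Ankrd1), and in 12.7% of the 9030 tested genes in the table and 12.6% of all 32851 promoters. Ankrd1 held them 210 and 123 bases before its start, Ajuba 186 and 164 bases before, Yap1 141 bases before and Amotl2 65 bases before. Wwtr1 held them at 1 site, which lay 136 bases before 1 of its starts and 170 before another. Tead3 held them 182 bases before 1 start and 123 and 114 bases before another. Yap1, Ankrd1, Amotl2 and Ajuba are shown as the coactivator itself, the most abundant target, a feedback target and an inhibitor of the Lats kinases, with the TEAD letters in capitals, each read 5′ to 3′ on the strand of its gene. A match is a run of letters and not a measured binding site. Of the stretches shown, those of Ankrd1 and Amotl2 lie inside the gene bounds of the count file (chr19:36111965-36120099 and chr9:102716802-102733418). For these genes the annotation of the count file begins before the RefSeq start.
Ankrd1, chr19:36119845-36120094, minus strand: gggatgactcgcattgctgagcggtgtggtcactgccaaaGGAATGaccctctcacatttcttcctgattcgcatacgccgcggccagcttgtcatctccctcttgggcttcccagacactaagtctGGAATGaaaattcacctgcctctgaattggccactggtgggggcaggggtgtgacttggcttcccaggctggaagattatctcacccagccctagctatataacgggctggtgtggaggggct
Amotl2, chr9:102717554-102717803, plus strand: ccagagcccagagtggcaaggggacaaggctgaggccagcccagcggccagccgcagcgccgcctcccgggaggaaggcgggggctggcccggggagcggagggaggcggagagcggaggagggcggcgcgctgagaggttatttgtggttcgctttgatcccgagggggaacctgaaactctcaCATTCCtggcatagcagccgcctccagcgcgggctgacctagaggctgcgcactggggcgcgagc
Ajuba, chr14:54577662-54577911, minus strand: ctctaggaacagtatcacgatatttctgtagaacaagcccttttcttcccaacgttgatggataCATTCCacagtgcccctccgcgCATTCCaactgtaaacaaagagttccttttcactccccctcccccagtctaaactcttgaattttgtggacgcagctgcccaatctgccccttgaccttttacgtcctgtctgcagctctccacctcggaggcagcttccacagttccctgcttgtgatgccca
Yap1, chr9:8004597-8004846, minus strand: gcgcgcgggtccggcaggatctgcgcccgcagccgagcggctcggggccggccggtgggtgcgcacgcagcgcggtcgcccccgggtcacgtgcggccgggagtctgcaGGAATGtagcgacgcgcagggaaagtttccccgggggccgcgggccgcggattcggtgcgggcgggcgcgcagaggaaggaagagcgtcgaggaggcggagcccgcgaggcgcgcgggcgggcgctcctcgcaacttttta

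None of the 9 members held the AP-1 letters TGACTCA (reverse complement TGAGTCA), present in 4.46% of all promoters and 4.31% of the tested genes in the table. Nor did any of them hold the TATA box letters TATAAA (reverse complement TTTATA), present in 12.4% of all promoters and 7.41% of those tested genes. Only these exact letters were searched, and the stretch of Ankrd1 shown above holds the similar letters TATATAA near its end.

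The first comparison was between the pools, and shows where each mRNA lay in the gradient of the control cells. In mock cells 4 of the 10 members were higher in polysomal than in sub-polysomal RNA and none was lower, where 47% of all genes tested passed, 23.3% higher and 23.7% lower. A gene passed at an adjusted p below 0.05 in edgeR's quasi-likelihood test with Benjamini-Hochberg adjustment. The 4 were Amotl1, Tead1, Yap1 and Amotl2. The 3 libraries of each pool did not overlap for 5 of the 10 members (background 51.9%, with 27.2% higher and 24.7% lower), which were these 4 and Tead3, all higher in polysomal RNA. As the values are shares of each library, the pool difference (log2 of polysomal over sub-polysomal level) is relative to the other mRNAs, and its median over all genes was 0.05 in mock and 0.06 in METTL7A1 cells.

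Amotl1 (chr9:14541966-14645056, minus strand), which encodes an angiomotin scaffold that binds YAP at cell junctions, stood at 44.0, 34.6 and 38.7 CPM in mock sub-polysomal libraries A, B and C and at 132, 108 and 117 CPM in the polysomal libraries. In METTL7A1 cells it stood at 41.1, 33.5 and 34.0 CPM in sub-polysomal libraries D, E and F and at 97.3, 106 and 92.3 CPM in the polysomal libraries. The lowest polysomal library of Amotl1 was thus far above its highest sub-polysomal library in both genotypes. The pool difference was 1.62 (standard error 0.15, adjusted p = 3.46e-07 by edgeR) in mock and 1.45 (standard error 0.14, adjusted p = 2.16e-07 by edgeR) in METTL7A1 cells, 3.06-fold and 2.73-fold. In mock cells Amotl1 was the only member past the limits that the study set for its total RNA (adjusted p below 0.01 and log2 change beyond 1.5), which 7.55% of all genes passed, and in METTL7A1 cells no member was past them (background 12.1%).

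Its paralogue Amotl2 (chr9:102716802-102733418, plus strand), also a YAP target, rose less from pool to pool. It stood at 44.0, 39.7 and 38.3 CPM in mock sub-polysomal and 73.2, 73.4 and 64.3 CPM in mock polysomal libraries, and at 50.4, 42.7 and 45.4 CPM and 79.5, 91.6 and 83.4 CPM in the 2 pools of METTL7A1 cells. The pools did not overlap in either genotype. The log2 change was 0.80 (standard error 0.14, adjusted p = 0.000116 by edgeR) in mock and 0.88 (standard error 0.13, adjusted p = 1.84e-05 by edgeR) in METTL7A1 cells.

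Yap1 (chr9:7931999-8004596, minus strand), the coactivator, stood at 53.0, 48.5 and 55.9 CPM in the mock sub-polysomal libraries and at 122, 105 and 100.4 CPM in the mock polysomal libraries. In METTL7A1 cells its sub-polysomal libraries held 35.1, 42.2 and 42.1 CPM and its polysomal libraries 89.6, 94.1 and 91.1 CPM. Every polysomal library was above every sub-polysomal library of both genotypes. The log2 change between the pools was 1.05 (standard error 0.14, adjusted p = 7.14e-06 by edgeR) in mock and 1.20 (standard error 0.14, adjusted p = 8.26e-07 by edgeR) in METTL7A1 cells. The other coactivator, Wwtr1 (chr3:57455649-57575910, minus strand), stood at 98.2, 83.4 and 94.0 CPM in mock sub-polysomal and 105, 107 and 84.1 CPM in mock polysomal libraries, and the pools overlapped. In METTL7A1 cells Wwtr1 held 62.3, 65.8 and 81.8 CPM and 78.6, 84.6 and 84.7 CPM, which overlapped as well. Its log2 changes between the pools, 0.11 (95% interval -0.19 to 0.40) and 0.24 (95% interval -0.06 to 0.54), did not pass the test in either genotype.

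Tead1 (chr7:112679318-112906807, plus strand), a DNA-binding partner of YAP and TAZ, stood at 31.6, 12.3 and 16.6 CPM in the mock sub-polysomal libraries and at 45.7, 44.1 and 36.7 CPM in the mock polysomal libraries. It stood at 16.2, 16.6 and 18.4 CPM and at 39.3, 41.9 and 43.8 CPM in the pools of METTL7A1 cells. Mock sub-polysomal library A, the shallowest of all, was apart from its replicates for this mRNA, but no sub-polysomal library reached a polysomal library. The log2 change between the pools was 1.17 (standard error 0.22, adjusted p = 0.000237 by edgeR) in mock cells, 1.49 without that library, and 1.28 (standard error 0.21, adjusted p = 4.60e-05 by edgeR) in METTL7A1 cells. Tead3 (chr17:28331671-28350817, minus strand), another TEAD factor, had the lowest counts of all members, 13 to 105 a library. It stood at 7.34, 10.1 and 10.5 CPM in mock sub-polysomal and 13.0, 14.4 and 12.2 CPM in mock polysomal libraries, which did not overlap. In METTL7A1 cells the order was the other way for most libraries, with 14.3, 8.68 and 13.9 CPM in sub-polysomal and 8.22, 9.12 and 9.26 CPM in polysomal libraries, and these overlapped. Neither log2 change of Tead3 passed, at 0.45 (standard error 0.21, adjusted p = 0.0797 by edgeR) in mock and -0.46 (standard error 0.20, adjusted p = 0.0591 by edgeR) in METTL7A1 cells. The latter passed without mock sub-polysomal library A (-0.47) or METTL7A1 sub-polysomal library E (-0.66), and with RLE factors, Actb scaling or a filter of 10 counts in every library.

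In METTL7A1 cells 6 of the 10 members were higher in the polysomal pool and none was lower, where 59.3% of all genes tested passed, 30% higher and 29.3% lower. Besides the 4 members of mock cells these were Ankrd1 and Lats1. The pools did not overlap for 7 of the 10 members, those 6 and Lats2, all higher in polysomal RNA, against a background of 66.8% (34.5% higher and 32.3% lower). Ankrd1 (chr19:36111965-36120099, minus strand) stood at 282, 306 and 291 CPM in sub-polysomal and at 403, 418 and 398 CPM in polysomal libraries of METTL7A1 cells, and its log2 change was 0.47 (standard error 0.13, adjusted p = 0.00484 by edgeR). In mock cells it stood at 308, 334 and 372 CPM in sub-polysomal and at 378, 351 and 361 CPM in polysomal libraries. There the pools of Ankrd1 overlapped, and its log2 change of 0.10 (standard error 0.13, adjusted p = 0.545 by edgeR) did not pass. With libraries scaled by Actb, the pool difference of Ankrd1 in METTL7A1 cells was 0.23 and no longer passed. Lats1 had a log2 change of 0.41 (standard error 0.16, adjusted p = 0.0356 by edgeR) in METTL7A1 and 0.34 (standard error 0.16, adjusted p = 0.0815 by edgeR) in mock cells. The call of Lats1 in METTL7A1 cells was lost without mock sub-polysomal library A, METTL7A1 sub-polysomal library D or E, or METTL7A1 polysomal library D, E or F (adjusted p = 0.0513 to 0.173 by edgeR). It was also lost with DESeq2 (0.36), RLE factors (0.36), a filter of 10 counts in every library (0.36) and Actb scaling (0.18, adjusted p = 0.436), 10 of 20 alternatives in all. In mock cells Lats1 passed without mock polysomal library C (log2 change 0.47, adjusted p = 0.0225 by edgeR).

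**Figure D2:**
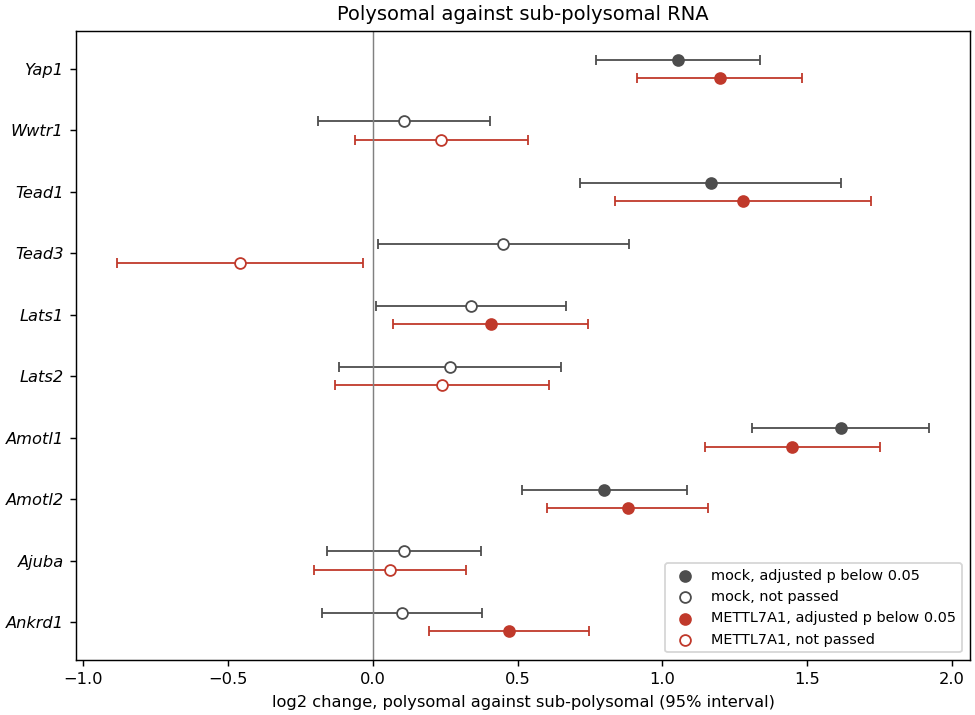
Log2 of polysomal over sub-polysomal level (horizontal axis) of each Hippo pathway mRNA in mock (grey) and METTL7A1 (red) cells. Points are the edgeR estimates from 3 libraries a group, bars are 95% intervals, and filled points had an adjusted p below 0.05. Amotl1, Tead1, Yap1 and Amotl2 lie to the right in both genotypes, and Tead3 lies on opposite sides of 0 with neither value past the test.

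The place of an mRNA between the pools went with the length of its coding sequence across all genes, and the members were read against that. Of the 12224 genes tested, 10831 had a principal transcript in the GENCODE annotation of GRCm38. In 4 equal bins of these genes by coding length, the median pool difference in mock cells was -0.51, 0.05, 0.23 and 0.54 from the shortest to the longest (Spearman's rho 0.547 across genes, which are not independent replicates). Yap1 (coding length 1416 nucleotides) and Tead1 (1308 nucleotides) had values of 1.05 and 1.17, above the 0.23 and 0.05 of their bins. The Lats kinases have the longest coding sequences of the members, 3387 nucleotides in Lats1 and 3126 in Lats2, yet their values in mock cells, 0.34 and 0.27, were below the 0.54 of their bin, while Amotl1 (2904 nucleotides) was above it. Ankrd1 and Wwtr1 have the shortest coding sequences, 957 and 1185 nucleotides, and their values of 0.10 and 0.11 were near the 0.05 of their bin. An ATG upstream of the start codon was present in the principal transcripts of 8 of the 10 members and of 48.9% of the genes. Lats2 had 8 of them and Ankrd1 had 3, and Tead3 and Amotl2 had none, where the annotated leader of Tead3 is only 5 bases long. The GENCODE leader of Ankrd1, 318 bases long, can include bases that are shown above as lying before its RefSeq start.

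The comparison of METTL7A1 with mock cells asked whether the mRNAs of the pathway differed between the transfected lines. The transfected gene and other differences between these separately selected lines cannot be told apart here. In the polysomal pool 2 of the 10 members were lower in METTL7A1 cells, Lats1 and Tead3, and none was higher, where 18% of all genes tested passed, 9.69% higher and 8.28% lower. In the sub-polysomal pool 2 members were lower, Lats1 and Yap1, and none was higher (background 31.4%, with 16.8% higher and 14.5% lower). With Actb scaling, which moved the median of all genes in that pool from 0.00 to 0.26, Lats1 (-0.50) still passed as lower there. Amotl2 (0.45) and Tead3 (0.61) then passed as higher. The share of all genes that passed under that scaling is not given here, so these calls have no background beside them. Over the mean of both pools 3 members were lower, Lats1, Yap1 and Wwtr1, and none was higher (background 39.3%, with 20.3% higher and 19% lower). Past the limits of the study there were 0 members in the polysomal pool (background 2.13%) and 0 in the sub-polysomal pool (background 2.76%). Over both there were 0 as well (background 2.93%), against the 2, 2 and 3 that passed by edgeR above. At an unadjusted p below 0.05 by edgeR there were 3, 3 and 4 members, beside 3819, 5166 and 5846 of the 12224 genes tested. The median log2 change of the members was -0.16 in the polysomal pool, -0.12 in the sub-polysomal pool and -0.10 over both, beside -0.01, 0.00 and -0.01 for all genes tested. The libraries of the genotypes did not overlap for 6 members in the polysomal pool, 4 lower and 2 higher in METTL7A1 cells (background 36.6%, with 17.7% lower and 18.9% higher). In the sub-polysomal pool they did not overlap for 4 members, all lower (background 43.9%, with 20.5% lower and 23.5% higher). In the polysomal pool the epithelial markers also differed between the genotypes, with a summed level of 3354 to 4033 CPM in mock and 5079 to 5959 CPM in METTL7A1 libraries, against 2604 to 2722 CPM and 2756 to 2999 CPM in the sub-polysomal pool. The part of this difference in the results was not tested.

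Lats1 (chr10:7681214-7716460, plus strand), a kinase that phosphorylates YAP and TAZ, differed most. It stood at 86.9, 71.4 and 84.5 CPM in mock and at 37.8, 50.6 and 56.2 CPM in METTL7A1 sub-polysomal libraries. In the polysomal pool it stood at 111, 113 and 83.3 CPM in mock and at 63.7, 62.9 and 66.4 CPM in METTL7A1 libraries. All 3 METTL7A1 libraries were below all 3 mock libraries in both pools. The log2 change was -0.74 (standard error 0.17, adjusted p = 0.00236 by edgeR) in the sub-polysomal and -0.67 (standard error 0.15, adjusted p = 0.00507 by edgeR) in the polysomal pool. Lats1 was 1.63-fold lower in the mean of both, at -0.70 on the log2 scale (standard error 0.11, adjusted p = 7.98e-05 by edgeR), and it passed under each of the 18 alternatives to this fit, with values between -0.77 and -0.53. Its paralogue Lats2 (chr14:57689662-57746123, minus strand), both a kinase and a YAP target, stood at 25.4, 16.7 and 21.3 CPM in mock and 19.2, 24.3 and 23.9 CPM in METTL7A1 sub-polysomal libraries. Its polysomal libraries held 28.9, 26.8 and 19.4 CPM in mock and 27.5, 24.5 and 28.1 CPM in METTL7A1 cells. The genotypes overlapped in both pools, and the log2 change of Lats2 in their mean was 0.11 (95% interval -0.16 to 0.38).

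Both coactivators were lower in METTL7A1 cells over the 2 pools together. Yap1 had a log2 change of -0.40 (standard error 0.14, adjusted p = 0.0408 by edgeR) in the sub-polysomal and -0.25 (standard error 0.13, adjusted p = 0.183 by edgeR) in the polysomal pool, and its libraries, given above, did not overlap between the genotypes in either pool. Over both pools Yap1 fell by 0.32 on the log2 scale (standard error 0.095, adjusted p = 0.0114 by edgeR), 1.25-fold. The libraries of Wwtr1 did not overlap in the sub-polysomal pool and overlapped in the polysomal pool. Wwtr1 had -0.39 (standard error 0.15, adjusted p = 0.0505 by edgeR) and -0.26 (standard error 0.14, adjusted p = 0.218 by edgeR) in these pools and fell by 0.32 over both (standard error 0.10, adjusted p = 0.0162 by edgeR). Scaling to the Actb count, which moved the median of all genes over both pools from -0.01 to 0.17, gave -0.15 for Yap1 as for Wwtr1, and neither passed. The sub-polysomal call of Yap1 alone was lost without mock sub-polysomal library A or C, without METTL7A1 sub-polysomal library D, E or F and without METTL7A1 polysomal library D, E or F (adjusted p = 0.0532 to 0.149 by edgeR). It was also lost with Actb scaling (-0.14), without the filter and with only the compared groups, 11 of 19 alternatives in all. The sub-polysomal change of Wwtr1, with an adjusted p just above the threshold, passed without mock sub-polysomal library B, mock polysomal library A or C or METTL7A1 sub-polysomal library F. Wwtr1 also passed with DESeq2, limma-voom, RLE factors or a filter of 10 counts in every library, 8 of 19 alternatives in all.

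Neither TEAD factor passed in the mean of both pools, with log2 changes of -0.07 (95% interval -0.39 to 0.24) for Tead1 and -0.12 (95% interval -0.42 to 0.19) for Tead3. Tead3 was lower in the polysomal pool of METTL7A1 cells, with a log2 change of -0.57 (standard error 0.19, adjusted p = 0.0383 by edgeR), and its libraries there did not overlap with the mock libraries. In the sub-polysomal pool the change of Tead3 was 0.34 (standard error 0.22, adjusted p = 0.261 by edgeR), and the libraries overlapped. With Actb scaling this change of Tead3 was 0.61 and passed (adjusted p = 0.0491 by edgeR). The polysomal call of Tead3 was lost without mock polysomal library A or B and without METTL7A1 polysomal library D, E or F (adjusted p = 0.0538 to 0.139 by edgeR). It was also lost with DESeq2 and with Actb scaling, 7 of 19 alternatives in all. The sub-polysomal change of Tead1 was -0.13 with all libraries and 0.20 without mock sub-polysomal library A, and passed in neither case.

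The scaffolds and Ankrd1 did not pass in either pool, except for Amotl2 in the sub-polysomal pool with Actb scaling (0.45, adjusted p = 0.0462 by edgeR). Amotl1 had log2 changes of -0.11 in the sub-polysomal and -0.27 (adjusted p = 0.169 by edgeR) in the polysomal pool, where its METTL7A1 libraries were all below the mock libraries. Amotl2 was on the other side, at 0.19 and 0.27 (adjusted p = 0.149 by edgeR), with all METTL7A1 libraries above the mock libraries in the polysomal pool and a change over both pools of 0.23 (standard error 0.095, adjusted p = 0.0607 by edgeR). Without mock sub-polysomal library A this change of Amotl2 was 0.25 and passed, as it did with Actb scaling (0.41). Ajuba (chr14:54567472-54577558, minus strand) was at 99.9, 103 and 83.1 CPM in mock and 91.5, 92.3 and 98.3 CPM in METTL7A1 sub-polysomal libraries, and at 101, 102 and 104 CPM and 90.3, 105 and 99.2 CPM in the polysomal libraries. The genotypes of Ajuba overlapped in both pools, with a log2 change of -0.04 in their mean (95% interval -0.22 to 0.15). All METTL7A1 libraries of Ankrd1 were below the mock libraries in the sub-polysomal pool and above them in the polysomal pool, and its log2 changes of -0.21 (adjusted p = 0.243 by edgeR) and 0.16 (adjusted p = 0.434 by edgeR) did not pass.

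**Figure D3:**
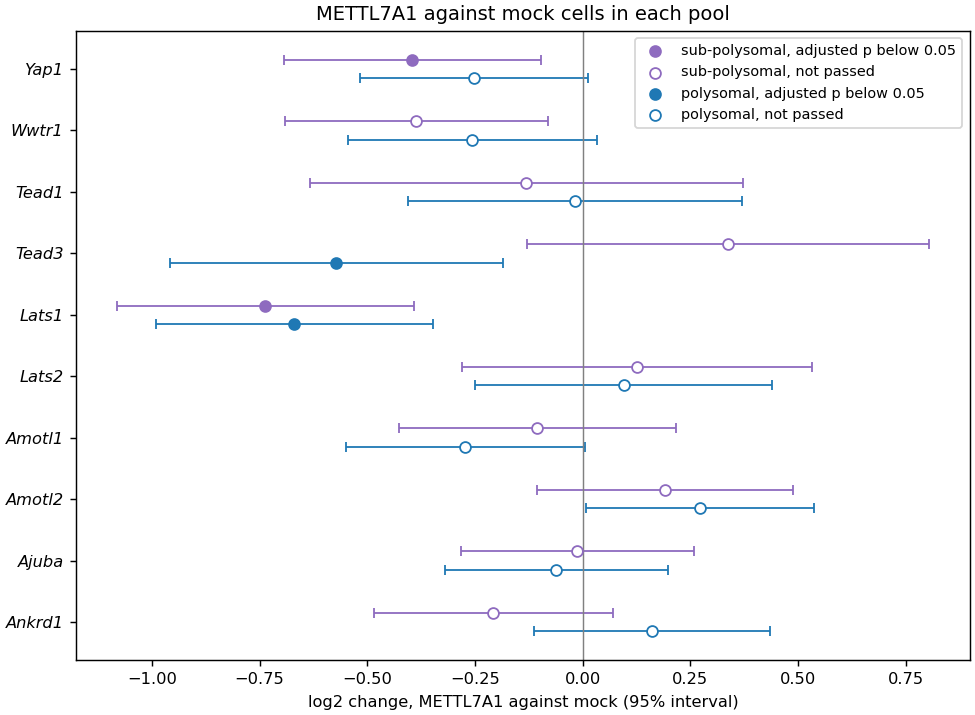
Log2 change of each Hippo pathway mRNA in METTL7A1 against mock cells (horizontal axis) in the sub-polysomal (purple) and the polysomal (blue) pool. Points are the edgeR estimates from 3 libraries a group, bars are 95% intervals, and filled points had an adjusted p below 0.05. Lats1 lies furthest to the left in both pools, and Tead3 lies on opposite sides of 0.

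Whether METTL7A1 cells held more of an mRNA in polysomes was tested as the shift, the pool difference in METTL7A1 cells minus that in mock cells. Of the members 0 passed edgeR's quasi-likelihood test, as did 0% of all genes tested. At an unadjusted p below 0.05 there was 1 member, Tead3, and 1911 genes (15.6%). DESeq2 and limma-voom also passed 0 members, where DESeq2 gave no adjusted p for Tead3. Tead3 had a shift of -0.91 on the log2 scale (standard error 0.29, 95% interval -1.52 to -0.30, adjusted p = 0.147 by edgeR), with values between -1.12 and -0.79 over 18 alternatives, all with an adjusted p above the threshold (0.0929 to 0.369). Ankrd1 had the largest shift towards polysomes among the members, 0.37 (standard error 0.19, 95% interval -0.02 to 0.76, adjusted p = 0.347 by edgeR). For Yap1 the shift was 0.14, with a 95% interval from -0.26 to 0.54, which includes 0. The interval is for Yap1 alone and does not mark the size of shift that the test adjusted over all genes would pass. The other 7 members had shifts between -0.17 (Amotl1) and 0.13 (Wwtr1).

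The 4 pairs of related genes were also set against each other within each library, as the log2 ratio of their counts. Such a ratio does not depend on the scaling of the library, and it shows unequal change and not which gene changed. Each ratio was compared between the pools within genotype and between the genotypes within pool, by a two-sided exact permutation test over the 12 libraries with 400 arrangements, whose smallest possible p is 0.005, and the 8 p-values were adjusted together. These tests were added after the values had been seen. The arrangements did not keep libraries of the same letter together, so such libraries of both pools counted as independent. Whether they came from the same gradient is not stated. If they did, the smallest p that a comparison of the genotypes could reach would be larger than 0.005. The p-values between the genotypes therefore rest on libraries that may not be independent. The ratio of Yap1 to Wwtr1 was -0.81 ± 0.072 in mock sub-polysomal and 0.15 ± 0.16 in mock polysomal RNA, and -0.81 ± 0.16 and 0.15 ± 0.042 in the same pools of METTL7A1 cells (SD, n = 3 each). It was 0.96 higher in the polysomal pool with no overlap in either genotype (exact permutation p = 0.005, adjusted p = 0.010). Between the genotypes the ratio of Yap1 to Wwtr1 differed by 0.00 in both pools (exact permutation p = 1, adjusted p = 1).

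The ratio of Lats1 to Lats2 behaved the other way round. It was 1.95 ± 0.16 in mock and 1.09 ± 0.13 in METTL7A1 sub-polysomal RNA, and 2.04 ± 0.090 and 1.27 ± 0.079 in polysomal RNA (SD, n = 3 each), 0.82 lower in METTL7A1 cells with no overlap in either pool (exact permutation p = 0.005, adjusted p = 0.010). Between the pools it differed by 0.13, which did not pass (exact permutation p = 0.105, adjusted p = 0.140). The ratio of Amotl1 to Amotl2 differed in both directions, 0.69 higher in polysomal RNA and 0.42 lower in METTL7A1 cells, with no overlap in any of the 4 comparisons (exact permutation p = 0.005, adjusted p = 0.010 for each). The ratio of Tead1 to Tead3 was 1.19 higher in polysomal RNA (exact permutation p = 0.020, adjusted p = 0.032), although the pools overlapped in mock cells through library A, where it was 2.11 in sub-polysomal RNA against 0.29 and 0.66 in libraries B and C. Between the genotypes the ratio of Tead1 to Tead3 was 0.51 lower in the sub-polysomal and 0.56 higher in the polysomal pool of METTL7A1 cells, and the mean difference of 0.03 did not pass (exact permutation p = 0.965, adjusted p = 1).

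**Figure D4:**
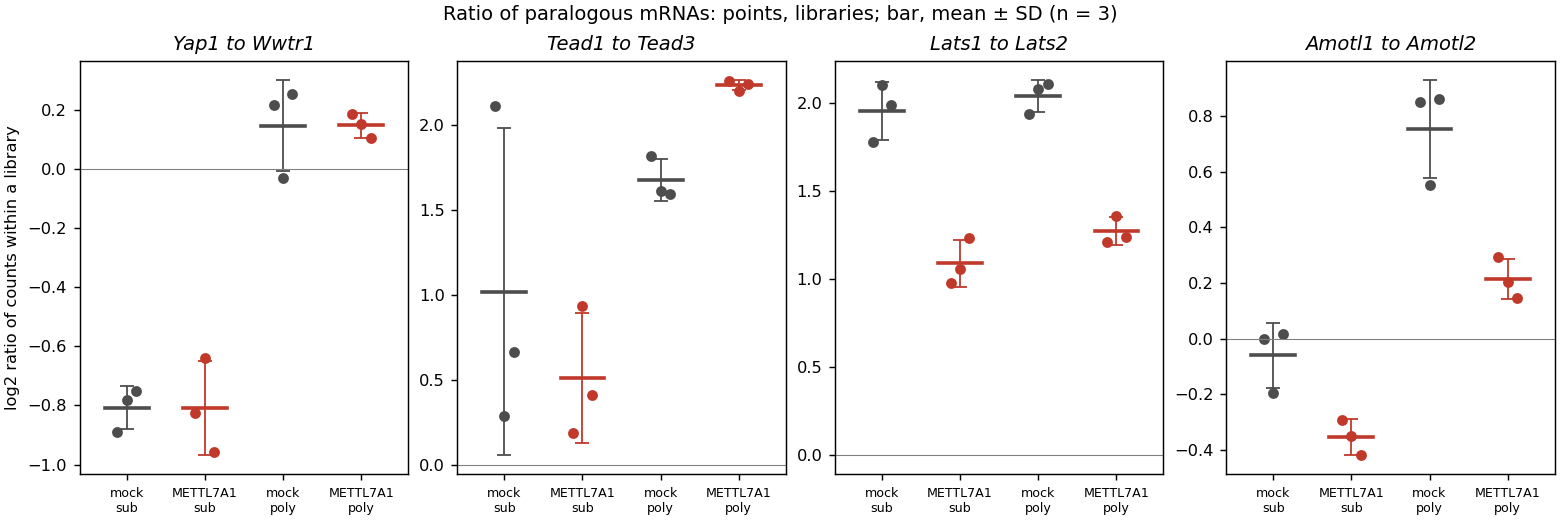
Log2 ratio of the counts of related Hippo pathway mRNAs within each library (vertical axis) in mock (grey) and METTL7A1 (red) cells, sub-polysomal and polysomal. Points are libraries and bars the mean ± SD of 3. The ratio of Yap1 to Wwtr1 separates the pools and not the genotypes, and the ratio of Lats1 to Lats2 separates the genotypes.

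The other genes of the pathway were taken from 4 lists of 58 distinct genes, of which 49 passed the filter on low counts, 39 of them no members. In the kinase cassette, 5 of the 7 genes were lower in METTL7A1 cells over both pools and none was higher, beside 19% lower among all genes tested. The median log2 change of the cassette was -0.64, beside -0.01 over all genes. In the polysomal pool alone 3 of the 7 were lower (background 8.28%), and in the sub-polysomal pool alone 4 (background 14.5%). Sav1, the scaffold of Stk3 and Stk4, stood at 142, 149 and 156 CPM in mock and 69.0, 77.2 and 94.0 CPM in METTL7A1 sub-polysomal libraries, and at 50.4, 90.2 and 79.8 CPM in mock and 40.0, 41.1 and 53.1 CPM in METTL7A1 polysomal libraries. The genotypes of Sav1 did not overlap in the sub-polysomal pool and overlapped in the polysomal pool through mock library A. The mean log2 change of Sav1 was -0.81 (standard error 0.13, adjusted p = 9.34e-05 by edgeR). Mob1a, a cofactor of the Lats kinases, fell by 0.77 (standard error 0.11, adjusted p = 3.90e-05 by edgeR), from 101 ± 22.2 to 51.6 ± 7.68 CPM in sub-polysomal and from 184 ± 26.3 to 124 ± 4.60 CPM in polysomal RNA (SD, n = 3 each). The kinase Stk3 fell by 0.64 (adjusted p = 0.00294 by edgeR) and Lats1 by 0.70, as given above. Stk3 passed in the sub-polysomal pool (-0.94, adjusted p = 0.00536 by edgeR) and not in the polysomal pool (-0.34, adjusted p = 0.262 by edgeR). Mob1b fell by 0.41 (adjusted p = 0.0427 by edgeR), a call lost in 11 of 18 alternatives, which left out mock sub-polysomal A, B or C, mock polysomal A or B, or METTL7A1 library D or E of either pool (adjusted p of Mob1b 0.0588 to 0.119 by edgeR) or used limma-voom or Actb scaling. The kinase Stk4 (0.26, adjusted p = 0.0603 by edgeR) and Lats2 did not pass. Sav1, Mob1a, Stk3 and Lats1 passed in each of the 18 alternatives, Actb scaling included.

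Among the 8 tested effectors and partners, Vgll3, a cofactor that binds TEAD factors, was higher in METTL7A1 cells (log2 change 0.65, standard error 0.15, adjusted p = 0.00167 by edgeR), Yap1 and Wwtr1 were lower, and 5 did not pass. Of the 19 tested upstream regulators 1 was higher, 4 were lower and 14 did not pass (median -0.11), beside 20.3% higher and 19% lower among all genes tested. The higher gene was Csnk1e, a casein kinase that helps mark YAP for degradation (0.62, adjusted p = 7.94e-05 by edgeR). The lower genes were Frmd6 (-0.41, adjusted p = 0.00556 by edgeR) and Nf2 (-0.38, adjusted p = 0.00372 by edgeR), which encode junctional activators of the kinases, Btrc (-0.36, adjusted p = 0.0313 by edgeR), a ubiquitin ligase subunit, and Wwc2 (-0.30). Btrc lost its call in 8 of 18 alternatives, among them those without mock sub-polysomal B, mock polysomal A, METTL7A1 sub-polysomal D or F or METTL7A1 polysomal D (adjusted p of Btrc 0.0518 to 0.110 by edgeR). Wwc2 lost it in 9, among them those without mock sub-polysomal A or C, mock polysomal A, METTL7A1 sub-polysomal D or E or METTL7A1 polysomal D or F (adjusted p of Wwc2 0.0608 to 0.0906 by edgeR). Frmd6 (-0.23) and Nf2 (-0.21) did not pass with Actb scaling. In single pools Frmd6 and Nf2 passed in sub-polysomal RNA (adjusted p = 0.00894 and 0.0268 by edgeR) and not in polysomal RNA (adjusted p = 0.330 and 0.0751 by edgeR).

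In a set of 22 targets of YAP and TAZ known from human cancers, 18 genes were tested, of which 4 were higher, 4 lower and 10 not past the test, with a median of 0.00, beside 20.3% higher and 19% lower among all genes tested. Ccn2 (also Ctgf), a matricellular protein and a widely used YAP readout, stood at 604, 458 and 516 CPM in mock and 940.4, 798 and 746 CPM in METTL7A1 sub-polysomal libraries. In the polysomal pool it stood at 668, 577 and 673 CPM in mock and 1051, 982 and 986 CPM in METTL7A1 libraries. The genotypes did not overlap for Ccn2 in either pool, and its mean log2 change was 0.65 (standard error 0.11, adjusted p = 0.000126 by edgeR). The kinase gene Nuak2 was also higher (0.79, adjusted p = 0.000193 by edgeR), and Asap1, which encodes a regulator of Arf proteins (-0.81, adjusted p = 2.90e-06 by edgeR), and the stress gene Gadd45a (-0.71, adjusted p = 0.00516 by edgeR) were lower. The remaining calls, named after their values had been seen, were Ccn1 (0.56) and F3 (0.40), higher, and Nt5e (-0.55) and Myof (-0.43), lower. F3 passed in the polysomal pool (0.70, adjusted p = 0.00224 by edgeR) and not in the sub-polysomal pool (0.09, adjusted p = 0.711 by edgeR), and Nt5e in the sub-polysomal (-0.80, adjusted p = 0.00128 by edgeR) and not in the polysomal pool (-0.30, adjusted p = 0.209 by edgeR). The shifts of F3 (0.61, adjusted p = 0.193 by edgeR) and Nt5e (0.50, adjusted p = 0.297 by edgeR) did not pass. The members in this set, Ankrd1 (-0.02), Lats2 (0.11) and Amotl2 (0.23), were among those that did not pass. Under the 18 alternatives, each with 1 library left out or another tool, filter or scaling, Ccn2, Ccn1, Nuak2, F3, Asap1 and Nt5e passed throughout, while Gadd45a (-0.54) and Myof (-0.25) did not pass with Actb scaling.

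**Figure D5:**
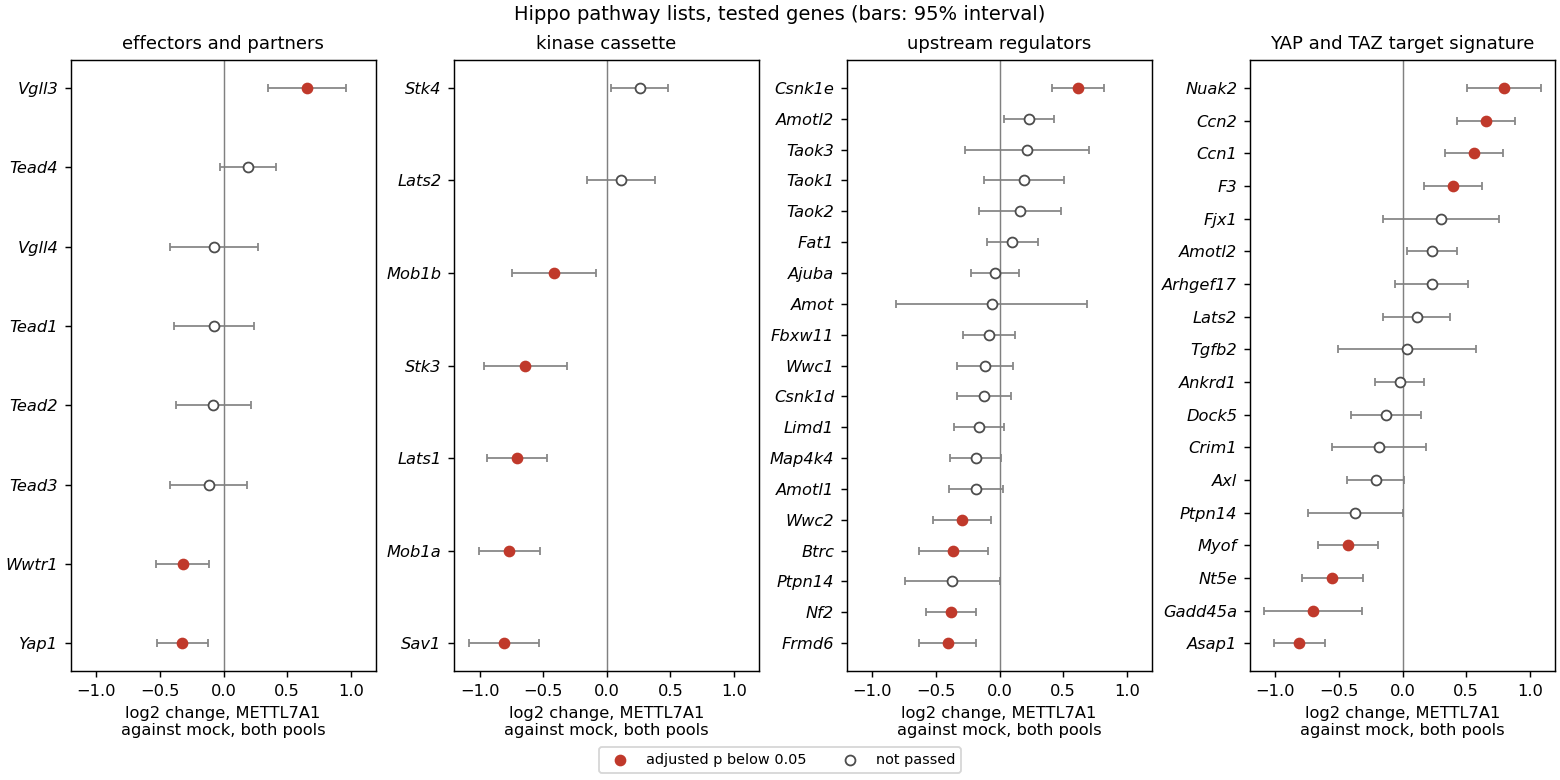
Log2 change in METTL7A1 against mock cells over both pools (horizontal axes) of the tested genes of 4 Hippo pathway lists, each gene on its own line, a gene of several lists in each. Points are edgeR estimates from 12 libraries, bars are 95% intervals, and filled points had an adjusted p below 0.05. In the kinase cassette 5 of 7 genes lie to the left, and the target set is spread to both sides of 0.

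The genes whose pattern over the 12 libraries was most like that of Yap1, by the root mean square difference of log2 CPM centred on each gene's mean, were Marf1 (0.107), Wdr1 (0.111), Pafah1b1 (0.116), Gmps (0.120) and Myof (0.120) of 9456 genes with a mean of at least 5 CPM. Myof also belongs to the YAP and TAZ target set. Most like Ankrd1 were Rfc4 (0.0776), Grsf1 (0.0801) and Utp14a (0.0884). The member nearest to Yap1 was Amotl1 (0.266), at rank 581 of the genes, and the member nearest to Ankrd1 was Ajuba (0.197), at rank 398. The points of these comparisons share libraries and depth, and the differences are given as a description.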

How the data were processed

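RNA-Seq of 12 libraries of 4T1 cells was used, mock or METTL7A1, sub-polysomal or polysomal, grouped as labelled, with 3 in each of 4 groups. The deposited values are counts per gene, without normalization. Per the labels and the study's methods, the authors prepared stranded, rRNA-depleted libraries, trimmed the paired reads, aligned them to mm10 with STAR 2.5.3a and assigned them to Ensembl genes of GRCm38 with featureCounts in R 3.5.1. The strand setting and the handling of reads that match several genes are not given in the sources used here. Genes that share bases may therefore have lost or shared reads.

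The filter asked for 1 CPM or more in 3 or more libraries, which 12224 of 55376 genes met. Counts were scaled by TMM, 1 model with 4 group means was fitted to all 12 libraries (edgeR 4.0.16, R 4.3.3), and contrasts were tested with the quasi-likelihood test and Benjamini-Hochberg adjustment over all genes tested. Passing meant an adjusted p below 0.05. Log2 CPM used a prior count of 2, and RPKM used the gene length in the count file. Library totals of 1817520 to 6966156 counts make 3 counts equal to 0.431 to 1.65 CPM. Intervals are at 95% and cover the fitted spread between libraries.

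All 10 members were named, with up to 4 genes from each list that had the largest change over both pools among those that passed at a mean of at least 5 CPM, 5 genes most like Yap1 and 3 most like Ankrd1. The members and lists were chosen with earlier results of these data known. Count ratios, motifs, coding lengths and the alternatives for the lists were added after the data were seen. Same-letter libraries of the 2 pools deviated from their group means with r between -0.29 and 0.11 across genes, and letters were not used as pairs. This does not show that such libraries came from separate gradients. The mean of both pools and the permutation tests of the count ratios treat such libraries as independent. The letter as a block was fitted only for the pool differences and the shift. Alternatives were DESeq2 1.42.0, limma-voom (limma 3.58.1), RLE factors, Actb scaling, 2 other filters, only the compared groups, the replicate letter as a block, the limits of the study and leaving out each library. On simulated counts of 12224 genes for the mean of both pools, 52 of 100 genes with a log2 change of 0.5 and 100 of 100 with a change of 1 passed, as did 7 of 12024 unchanged genes. The changed genes of this simulation all had a mean of at least 5 CPM. Its 12 libraries were drawn independently and without a difference between the pools, so it does not cover libraries that share a gradient. Figures used matplotlib 3.10.9.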

Additional observations from a re-analysis of the deposited data

How the results depend on the processing

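The counts of members that passed depended on the limits and, in single pools, on the fit. By the limits of the study (adjusted p below 0.01 and log2 change beyond 1.5) the counts were 0 for METTL7A1 against mock in the polysomal pool, in the sub-polysomal pool and over both, 1 between the pools in mock cells and 0 in METTL7A1 cells. The polysomal count of METTL7A1 against mock was 1 with DESeq2 and 1 with Actb scaling, and the sub-polysomal count was 1 without the filter and 1 with only the compared groups. Leaving out 1 library gave 1 to 2 members in the polysomal pool, 1 to 3 in the sub-polysomal pool, 3 to 4 over both, 4 to 5 between the pools in mock and 5 to 6 in METTL7A1 cells, and 0 for the shift. The libraries that took the polysomal and sub-polysomal counts to 1 are those named in the report beside Tead3 and Yap1, except METTL7A1 sub-polysomal library F, without which Wwtr1 passed.

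Sign changes were seen only in values that did not pass. With Actb scaling, log2 changes of METTL7A1 against mock turned to 0.085 (polysomal), 0.099 (sub-polysomal) and 0.092 (both) for Tead1, to 0.035, 0.24 and 0.14 for Ajuba, to 0.15 (sub-polysomal) for Amotl1, to 0.050 (sub-polysomal) and 0.16 (both) for Ankrd1 and to 0.064 (both) for Tead3. Shifts turned to -0.0046 for Yap1, -0.0084 for Wwtr1, -0.015 for Tead1, -0.067 for Lats1 and -0.079 for Amotl2, and the pool change of Ajuba in METTL7A1 cells to -0.18. That scaling moved the median of all genes to 0.08, 0.26 and 0.17 in the polysomal pool, the sub-polysomal pool and both. The shift of Tead1 was -0.0026 with limma-voom, and the sub-polysomal change of Ajuba 0.012 without the filter. With 1 library left out, values spanned 0 for Tead1 (polysomal -0.11 to 0.043, sub-polysomal -0.38 to 0.20, both -0.20 to 0.094, shift -0.22 to 0.36), Lats2 (polysomal -0.063 to 0.21, sub-polysomal -0.014 to 0.22, shift -0.19 to 0.11), Ajuba (sub-polysomal -0.11 to 0.052, shift -0.11 to 0.048), Ankrd1 (both -0.064 to 0.015) and Lats1 (shift -0.073 to 0.19). The cause of these changes was not tested. With the replicate letter as a block, the counts between the pools were 4 in mock and 6 in METTL7A1 cells and 0 for the shift, as without it, and only the shift of Lats2 changed sign, to 0.017. Of the 6 letters, 2 correlated best with their own letter in the other pool. Depth limits Tead3 most, with 13 to 105 counts a library.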

Other observations

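Between the pools, the wider lists without the members held 39 tested genes, of which 22 were higher in polysomal and 4 in sub-polysomal RNA of mock cells. In METTL7A1 cells these counts were 25 and 3, at an adjusted p below 0.05 by edgeR. Among all genes tested 23.3% were higher and 23.7% lower in polysomal RNA of mock cells, and 30% and 29.3% in METTL7A1 cells. Among the 19 tested upstream regulators, members included, 14 were higher in polysomal RNA of mock and 15 of METTL7A1 cells, and none was lower. Frmd6, for example, had a pool difference of 1.01 in mock and 1.42 in METTL7A1 cells on the log2 scale.

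Some relatives of the members lay on the sub-polysomal side. They are named here after their values were seen. Tead2, a further TEAD factor, stood at 162 ± 45.2 CPM in sub-polysomal and 52.9 ± 14.5 CPM in polysomal RNA of mock cells, and at 172 ± 13.0 and 44.9 ± 4.42 CPM in METTL7A1 cells (SD, n = 3 each). Its pool difference (log2 of polysomal over sub-polysomal level) was -1.63 (standard error 0.20, adjusted p = 5.44e-06 by edgeR) in mock and -1.94 (standard error 0.20, adjusted p = 3.75e-07 by edgeR) in METTL7A1 cells, while that of Tead1 was above 0 in both. Sav1 had -1.02 and -0.85 (adjusted p = 0.000186 and 0.000821 by edgeR), where Mob1a had 0.88 and 1.27. The shift between the genotypes did not pass for Tead2 (-0.31, adjusted p = 0.631 by edgeR), Sav1 (0.18, adjusted p = 0.793 by edgeR) or Mob1a (0.40, adjusted p = 0.411 by edgeR).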
